A study of Mus musculus with 9 samples.

Results

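The genes described here are 38 genes of the fat droplet, the adipokines, lipolysis and lipid synthesis, taken by symbol from a combined table of 19481 genes. All 38 symbols were found in it. RNA was measured in 9 tumors grown from KLN205, a mouse lung squamous carcinoma line, under the skin of the right flank of young adult female DBA/2 mice. The cells carried a doxycycline-inducible lentiviral shRNA, and the groups were sh Control, sh2 Tmprss11b and sh3 Tmprss11b with 3 tumors each, below called control, sh2 and sh3. The labels give, for all groups, treatment of the cells with doxycycline at 3 µg/ml to express the shRNAs. The animals of every group, controls included, received doxycycline once the tumors averaged 100 mm3, and tumors were resected on day 50. The members were chosen by their role in fat, with lower counts of *Thrsp*, *Ces1d* and *Pck1* in knockdown than in control tumors already seen, so values of knockdown against control tumors are given as a description, without a test.

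White adipocytes store triacylglycerol in a single large droplet, coat that droplet with perilipins and CIDE proteins, and secrete adipokines into the blood. They take up fatty acids released by lipoprotein lipase, rebuild glycerides, and release fatty acids again by a chain of lipases. Fatty acid synthesis itself is not particular to fat: carcinoma cells and most dividing cells run ATP citrate lyase, acetyl-CoA carboxylase and fatty acid synthase. Subcutaneous tumors in the flank lie beside fat, skin, the mammary gland and the muscle of the body wall. The members were therefore set apart from textbook knowledge into 10 adipocyte-enriched genes, 17 genes of adipocytes and of other host cells, and 11 broadly expressed lipid enzymes. The first class is one of emphasis only, since 2 of its genes, *Cidea* and *Plin4*, are also known outside white fat. In RNA of whole tumor pieces, fewer cells of a type and less RNA per cell cannot be told apart, and with no cultured KLN205 cells among these samples neither can carcinoma and host RNA.

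*Tmprss11b*, the targeted serine protease gene, is listed under the older symbol *Tmprss11bnl*. It had 18, 51 and 42 counts in control replicates 1, 2 and 3, 7, 2 and 5 counts in sh2 and 10, 4 and 5 counts in sh3. All 6 knockdown tumors were below the lowest control tumor, so the gene went with the labels. Total counts ranged from 20653219 to 24047784 per tumor, at which 3 counts equal 0.125 to 0.145 CPM (a count scaled to the total count of its tumor), a floor that covers counting error only. The epithelial keratin genes *Krt8*, *Krt18* and *Krt19* had mean levels of 1286, 1538 and 1847 TPM (a level per gene length, scaled to the same sum in every tumor), and no tumor lacked counts for any carcinoma epithelium marker. Tumor pieces differed in host tissue. The summed CPM of 10 skeletal muscle genes ran from 11.7 in sh2 replicate 3 to 3559 in control replicate 3. Milk protein genes stood out in 1 tumor, sh2 replicate 3, with 218 counts for *Csn2* against at most 8 in the other tumors.

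Promoters of genes that define the split are shown with their letters. RefSeq promoter windows of 300 bases, with 250 before and 50 after the transcription start on build GRCm38.p6, were found for 26 of the 38 members. Capitals mark matches, on either strand, to the CCAAT box (CCAAT), a C/EBP-like pattern (TTGCNNAA) or the short cAMP response element (TGACGT), each written 5′ to 3′ on the strand of the gene, and in *Fasn* a pair of CCAAT matches on opposite strands overlaps. *Adipoq* encodes adiponectin, *Plin1* the droplet coat protein perilipin 1, *Cidec* the droplet fusion protein FSP27 (second of its 2 windows), *Pck1* phosphoenolpyruvate carboxykinase, *Thrsp* the lipogenic protein Spot 14, and *Fasn* fatty acid synthase. The windows lie at chr16:23146286-23146585 (plus strand) for *Adipoq*, chr7:79732727-79733026 (minus) for *Plin1*, chr6:113434715-113435014 (minus) for *Cidec*, chr2:173152823-173153122 (plus) for *Pck1*, chr7:97417501-97417800 (minus) for *Thrsp* and chr11:120824498-120824797 (minus) for *Fasn*.
Adipoq: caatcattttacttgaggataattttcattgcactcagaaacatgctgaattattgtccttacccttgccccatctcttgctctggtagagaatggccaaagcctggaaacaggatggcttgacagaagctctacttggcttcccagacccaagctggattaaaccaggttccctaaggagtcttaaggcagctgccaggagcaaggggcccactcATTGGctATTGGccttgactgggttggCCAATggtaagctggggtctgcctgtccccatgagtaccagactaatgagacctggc
Plin1: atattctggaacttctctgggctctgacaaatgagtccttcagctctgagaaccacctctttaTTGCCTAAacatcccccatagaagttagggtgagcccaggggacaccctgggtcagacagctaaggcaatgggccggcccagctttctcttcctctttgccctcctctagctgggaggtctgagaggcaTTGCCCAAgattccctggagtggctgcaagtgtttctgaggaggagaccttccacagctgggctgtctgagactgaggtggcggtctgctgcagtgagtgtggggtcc
Cidec: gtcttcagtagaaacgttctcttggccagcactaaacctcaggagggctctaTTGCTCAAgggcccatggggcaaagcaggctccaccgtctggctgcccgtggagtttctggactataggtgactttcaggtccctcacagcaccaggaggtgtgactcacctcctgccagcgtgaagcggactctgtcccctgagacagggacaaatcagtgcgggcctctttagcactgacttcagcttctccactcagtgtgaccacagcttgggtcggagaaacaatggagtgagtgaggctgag
Pck1: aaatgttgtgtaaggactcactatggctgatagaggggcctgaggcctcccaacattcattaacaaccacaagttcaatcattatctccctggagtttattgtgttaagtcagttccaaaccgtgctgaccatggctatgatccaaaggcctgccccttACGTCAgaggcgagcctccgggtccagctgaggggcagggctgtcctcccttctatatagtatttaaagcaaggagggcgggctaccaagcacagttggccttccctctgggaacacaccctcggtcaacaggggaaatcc
Thrsp: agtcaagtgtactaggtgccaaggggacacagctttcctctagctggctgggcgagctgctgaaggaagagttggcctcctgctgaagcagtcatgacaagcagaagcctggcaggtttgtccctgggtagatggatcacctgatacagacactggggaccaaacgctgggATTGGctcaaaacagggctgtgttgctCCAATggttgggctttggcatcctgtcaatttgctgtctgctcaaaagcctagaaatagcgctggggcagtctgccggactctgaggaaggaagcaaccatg
Fasn: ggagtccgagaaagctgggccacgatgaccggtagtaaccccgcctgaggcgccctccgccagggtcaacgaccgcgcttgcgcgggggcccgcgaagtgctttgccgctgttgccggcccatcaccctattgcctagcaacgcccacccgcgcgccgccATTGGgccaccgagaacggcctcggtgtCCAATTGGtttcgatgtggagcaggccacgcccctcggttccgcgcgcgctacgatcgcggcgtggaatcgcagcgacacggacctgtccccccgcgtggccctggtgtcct

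The C/EBP-like pattern, a loose form of the site bound by the C/EBP factors of fat cell differentiation, is not a palindrome. It was found in windows of 4 of the 26 members, namely *Plin1*, *Cidec*, *Lep* and *Pparg*, and only the match in *Lep* read the same on both strands. Of the 27025 genes with a window searched, 12.2% held it. Windows on chromosome 18, where *Cidea* lies, were left out of the search. *Plin1* held 2 matches, whose first bases lie 187 and 58 bases before the start. CCAAT boxes were found in 12 of the 26 members and in 41.1% of all genes, among them *Adipoq*, *Thrsp*, *Fasn*, *Acly* and *Srebf1*. Whether the matches bear on the counts of these genes was not tested. The short cAMP response element was found in *Pck1* and *Pnpla3*, and in 8.37% of all genes. In *Pnpla3* it overlapped the full element TGACGTCA, which 2.03% of all genes held. These are matches of letters in short windows only, not binding.

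The levels of the members spanned a wide range. Mean TPM over the 9 tumors ran from 0.0639 for *Ces1f* to 150 for *Acly*, which makes cytosolic acetyl-CoA from citrate. The 11 broadly expressed enzymes lay between 3.25 TPM (*Acaca*) and 150 TPM, with a median of 31.4 TPM, while the 10 adipocyte-enriched genes lay between 0.0804 TPM (*Lep*) and 32.3 TPM (*Cfd*), with a median of 0.878 TPM. After *Acly* the highest members were *Pnpla2* at 71.7 TPM, *Fabp4* at 69.3 TPM, *Srebf1* at 63.2 TPM and *Fasn* at 59.1 TPM. Both kinds of gene also differed in their floor. All 11 broad enzymes had 157 counts or more in every tumor, and 7 of the 10 adipocyte-enriched genes had 0 counts in at least 1 tumor. In its lowest tumor each adipocyte-enriched gene was at 3.66% or less of its own control mean CPM, against between 11.3% (*Scd1*) and 89.3% (*Pnpla2*) for the broad enzymes. Part of this difference reflects low counts. The control means of *Lep*, *Adrb3* and *Aqp7* were themselves only 0.139, 0.331 and 0.344 CPM, close to the floor of 3 counts.

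**Figure D1:**
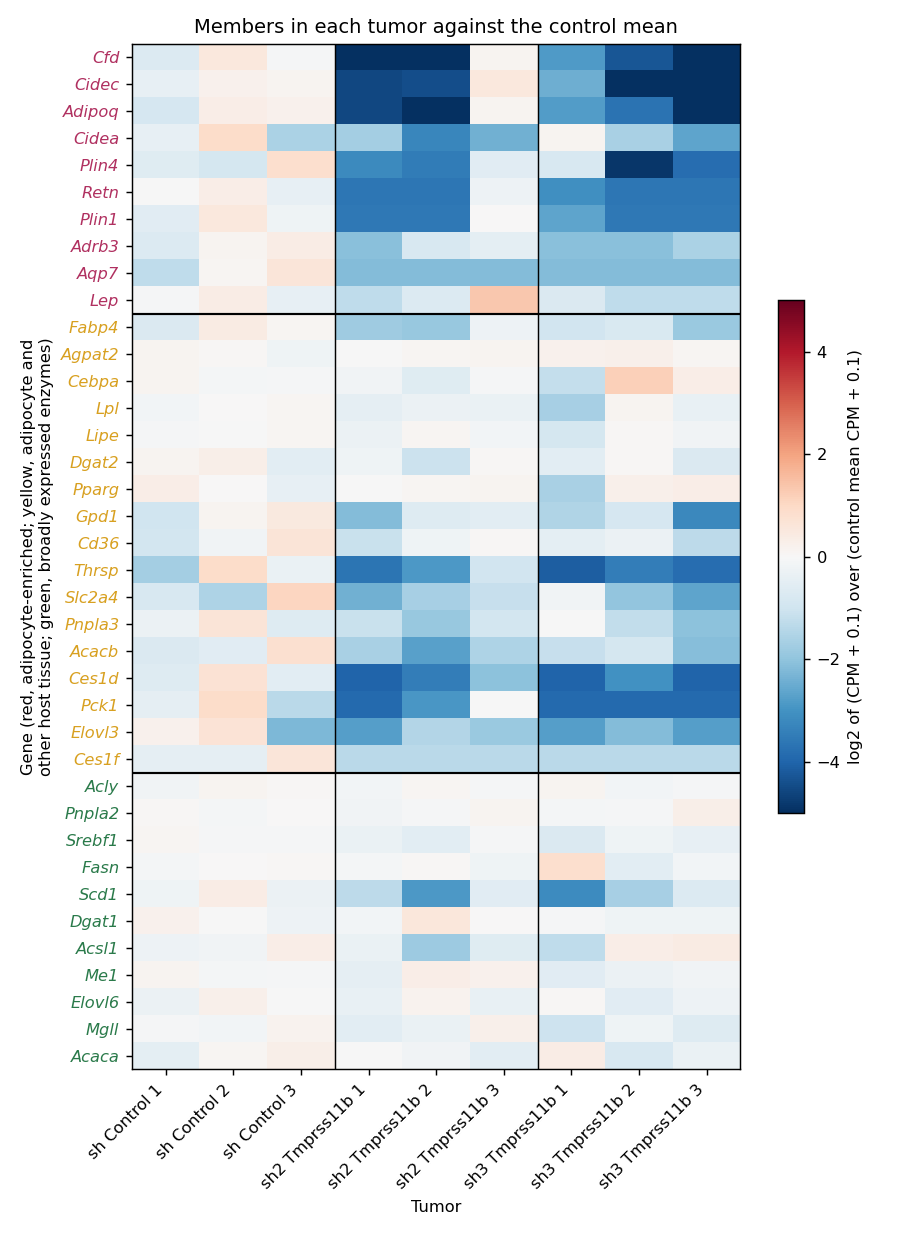
Each cell shows 1 of the 38 genes (rows, by class and falling mean TPM) in 1 of the 9 tumors (columns), as the log2 of CPM + 0.1 over the control mean CPM + 0.1, blue below and red above that mean. The 10 adipocyte-enriched genes at the top are below the control mean in sh2 replicates 1 and 2 and in sh3 replicates 2 and 3, less so for *Lep* and *Adrb3* in sh2 replicate 2, and near the control level for most genes in sh2 replicate 3, while most of the 11 enzymes at the bottom are pale throughout.

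Adipokines, the hormones of fat, had fewer counts than in any control tumor in every knockdown tumor but sh2 replicate 3. *Adipoq* (chromosome 16, 23146536 to 23157968) had 41, 98 and 92 counts in the control tumors, 1, 0 and 84 counts in sh2 and 8, 3 and 0 counts in sh3. Mean levels of *Adipoq* were 3.19 ± 1.26 CPM (SD, n = 3) in controls, 1.18 ± 2.01 CPM in sh2 and 0.174 ± 0.186 CPM in sh3. The groups overlapped through sh2 replicate 3 alone, which lay inside the control range, whereas the other 5 knockdown tumors had 8 counts or fewer. *Cfd* (chromosome 10, 79890853 to 79892655), which encodes adipsin or complement factor D, repeated this order at a higher level, with 388, 912 and 613 counts in controls, 7, 8 and 699 in sh2 and 78, 25 and 6 in sh3. Its means were 26.5 ± 10.7 CPM, 9.95 ± 16.6 CPM and 1.71 ± 1.72 CPM (SD, n = 3 each). The log2 fold change against controls was −1.41 (SE 1.41) with sh2 and −3.95 (SE 1.59) with sh3 for *Cfd*, and −1.42 (SE 1.39) and −4.17 (SE 1.66) for *Adipoq*. *Retn*, which encodes resistin, is singled out here after its values were seen, with 26, 34 and 20 counts in controls, 0, 0 and 22 in sh2 and 1, 0 and 0 in sh3. *Lep*, the leptin gene, was low throughout at 12 counts or fewer, and its highest count came from sh2 replicate 3.

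Of the droplet genes, *Cidec* and *Plin1* had the order of the adipokines over the tumors, *Plin4* had it in part, and *Cidea* had another. *Cidec* (chromosome 6, 113424634 to 113435760) had 72, 118 and 111 counts in controls, 2, 2 and 144 in sh2 and 15, 0 and 0 in sh3. Its means were 4.17 ± 0.966 CPM in controls, 2.06 ± 3.42 CPM in sh2 and 0.231 ± 0.400 CPM in sh3 (SD, n = 3 each), and sh2 replicate 3 was the highest of all 9 tumors. *Plin1*, the protein whose promoter is printed above, followed with 17, 40 and 23 counts in controls, 0, 0 and 27 in sh2 and 2, 0 and 0 in sh3. *Cidea* (chromosome 18, 67343564 to 67367794), a droplet protein of brown fat that mammary and sebaceous cells also make, lay otherwise. It had 23, 63 and 9 counts in controls, 8, 1 and 4 in sh2 and 32, 7 and 3 in sh3, so that sh2 replicate 3 was low and sh3 replicate 1 was above 2 of the 3 control tumors. *Plin4*, a perilipin found in fat and also in muscle, had 65, 56 and 190 counts in controls, 9, 6 and 69 in sh2 and 53, 1 and 5 in sh3. It was thus within the control range in sh2 replicate 3, as *Adipoq* was, and also in sh3 replicate 1. Summed skeletal muscle markers were highest in control replicate 3 and sh3 replicate 1 (3559 and 1125 CPM) but lowest in sh2 replicate 3 (11.7 CPM). The part of muscle in the *Plin4* counts was not tested.

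**Figure D2:**
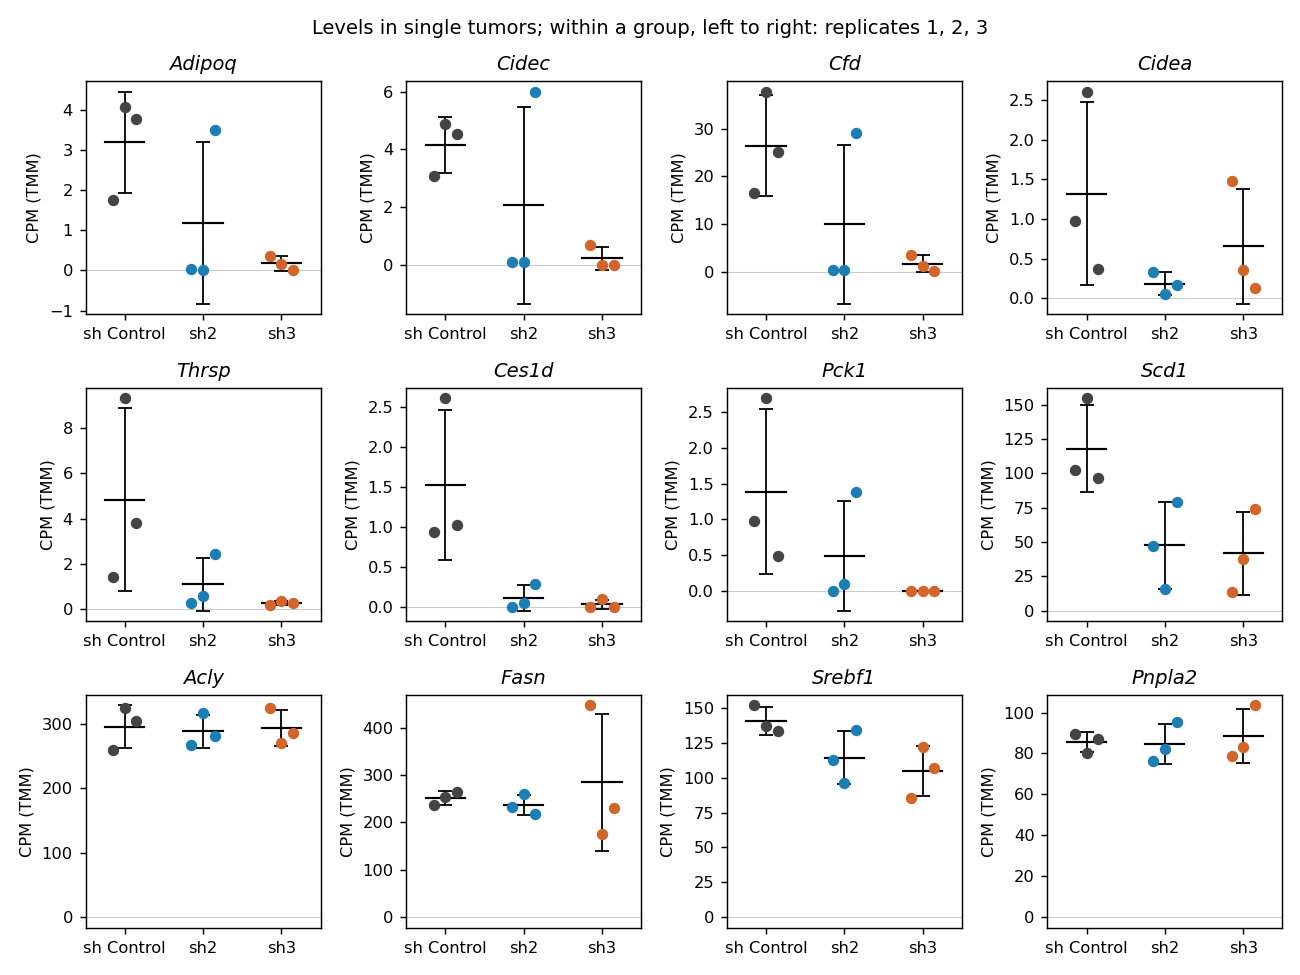
Points are TMM-normalized CPM of 12 genes in single tumors, with the group mean (line) and SD (bar) over 3 tumors. *Adipoq*, *Cidec* and *Cfd* show 1 high sh2 tumor, replicate 3, and low values in the other knockdown tumors, while *Acly*, *Srebf1* and *Pnpla2* differ by 1.78-fold or less between any of the 9 tumors.

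Uptake genes ranged from 0 counts in the knockdown tumors to nearly level. *Aqp7*, the glycerol channel of fat cells, which is also singled out after its values were seen, had 2, 9 and 14 counts in controls and 0 in all 6 knockdown tumors, which makes it at least 2.53-fold lower there when 3 counts per tumor stand for the floor. *Fabp4*, a fatty acid binding protein of adipocytes, capillary endothelium and macrophages, had 424, 961 and 798 counts in controls, 209, 166 and 601 in sh2 and 339, 349 and 194 in sh3. It was at 26.6% or more of its control mean in every tumor, although *Adipoq* was at 0 in 2 of them. *Lpl*, *Cd36* and the insulin-responsive glucose transporter gene *Slc2a4* had log2 fold changes of −0.41 (SE 0.30), −0.50 (SE 0.39) and −1.48 (SE 0.69) for the mean of both shRNAs against controls. *Slc2a4* was highest in control replicate 3 (230 counts) and next in sh3 replicate 1 (85 counts), the same tumors that led in skeletal muscle markers. *Lpl* was lowest in sh3 replicate 1 (410 counts against 1024 or more elsewhere), where summed macrophage markers were also lowest at 569 CPM, against 813 CPM or more in the other tumors. The largest part of that sum was *C1qa*, at 296 CPM in sh3 replicate 1. *C1qa* and *Csf1r* were lowest in that tumor, but *Mrc1* was lowest in sh3 replicate 3 and *Cd68* in sh2 replicate 2. *Cd163* was at 11.6 CPM in sh3 replicate 1, against 18.7 CPM in its highest tumor. The share of macrophage RNA in *Lpl* was not tested.

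Among the lipolysis genes, *Ces1d* (chromosome 8, 93166072 to 93197804) and *Ces1f* (chromosome 8, 93256236 to 93279766) belong to a cluster of closely similar carboxylesterase genes, so reads may be split between copies and their counts are uncertain. *Ces1d*, a triacylglycerol hydrolase of fat and liver, had 22, 63 and 25 counts in controls, 0, 1 and 7 in sh2 and 0, 2 and 0 in sh3. Every knockdown tumor was below every control tumor, and the means were 1.52 ± 0.941 CPM, 0.113 ± 0.157 CPM and 0.0339 ± 0.0587 CPM (SD, n = 3 each). Unlike *Adipoq*, *Ces1d* stayed below the control range in sh2 replicate 3. *Ces1f* had 2, 2 and 7 counts in controls and 0 in all knockdown tumors, too few to give a fold. Of the lipases that many cells use, *Pnpla2* was level. *Pnpla2*, the adipose triglyceride lipase gene, had 2107, 1934 and 2126 counts in controls, 1814, 1697 and 2287 in sh2 and 1708, 1634 and 2421 in sh3, with a log2 fold change of 0.02 (SE 0.12) for the mean of both shRNAs. *Lipe*, which encodes hormone-sensitive lipase, had a log2 fold change of −0.19 (SE 0.20) for the mean of both shRNAs. *Mgll*, monoglyceride lipase, was at −0.16 (SE 0.27) with sh2 and −0.59 (SE 0.27) with sh3, where all 3 tumors were below every control tumor. *Adrb3*, the adrenergic receptor that starts lipolysis in fat, had between 0 and 11 counts, and *Pnpla3* between 15 and 112.

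Fatty acid synthesis held genes that were low in knockdown tumors and genes that were level. *Thrsp* (chromosome 7, 97412933 to 97417550) had 33, 225 and 93 counts in controls, 7, 12 and 58 in sh2 and 4, 7 and 6 in sh3. The sh3 tumors were all below the controls, sh2 replicate 3 lay within their range, and the controls themselves differed widely, with means of 4.84 ± 4.05 CPM, 1.10 ± 1.15 CPM and 0.266 ± 0.0857 CPM (SD, n = 3 each). *Scd1*, stearoyl-CoA desaturase (chromosome 19, 44394450 to 44407709), was the only broad enzyme whose groups did not overlap. It had 2413, 3737 and 2362 counts in controls, 1122, 331 and 1905 in sh2 and 288, 743 and 1727 in sh3, or 118 ± 31.9 CPM, 47.6 ± 31.7 CPM and 41.6 ± 30.5 CPM (SD, n = 3 each). Its order among the knockdown tumors was not that of *Adipoq*: sh3 replicate 3, with no *Adipoq* count, had the second highest *Scd1* level of the 6.

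*Acly* and *Fasn*, core enzymes of the pathway, had log2 fold changes near 0. *Acly* (chromosome 11, 100476352 to 100528000) had 6077, 7820 and 7421 counts in controls, 6353, 6544 and 6733 in sh2 and 7003, 5327 and 6670 in sh3, with means of 295 ± 33.2 CPM, 288 ± 25.1 CPM and 293 ± 27.4 CPM. *Fasn* (chromosome 11, 120805958 to 120825166) had 5542, 6147 and 6454 counts in controls, 5507, 5372 and 5205 in sh2 and 9670, 3452 and 5395 in sh3, and both its highest and its lowest tumor came from sh3. The log2 fold changes for the mean of both shRNAs were −0.02 (SE 0.12) for *Acly*, 0.04 (SE 0.26) for *Fasn*, −0.20 (SE 0.28) for *Acaca* and −0.20 (SE 0.20) for *Elovl6*, and the groups overlapped for all 4. *Me1*, the malic enzyme gene that supplies NADPH, was at 0.07 (SE 0.21) with sh2 and −0.34 (SE 0.21) with sh3, whose 3 tumors (20.3 to 26.7 CPM) were below the controls (27.9 to 33.1 CPM). *Acacb*, the mitochondrial acetyl-CoA carboxylase of oxidative tissues, differed from its cytosolic relative *Acaca*. It had 70, 80 and 212 counts in controls, 37, 14 and 40 in sh2 and 47, 53 and 25 in sh3, every knockdown tumor below every control. *Elovl3*, a fatty acid elongase of brown fat and skin glands, had 24 counts or fewer.

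Glyceride synthesis genes ran from near 0 to level. *Pck1* (chromosome 2, 173153073 to 173159274), which in fat supplies glycerol 3-phosphate, had 23, 65 and 12 counts in controls, 0, 2 and 33 in sh2 and 0 in all 3 sh3 tumors. Against the control mean of 1.39 ± 1.15 CPM the sh3 tumors were at least 9.92-fold lower, again with 3 counts per tumor as the floor, while sh2 replicate 3 lay within the control range. *Gpd1*, which makes glycerol 3-phosphate from glucose, had a log2 fold change of −1.28 (SE 0.53) for the mean of both shRNAs, with 34 to 235 counts in knockdown and 168 to 486 in control tumors, so the groups overlapped. *Agpat2* (0.13, SE 0.11), *Dgat1* (0.00, SE 0.18) and *Dgat2* (−0.35, SE 0.30) had groups that overlapped on the same comparison. *Acsl1*, which activates long-chain fatty acids, had a log2 fold change against controls of −0.78 (SE 0.47) with sh2, where all 3 tumors were below every control, and 0.00 (SE 0.47) with sh3.

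Of the regulators of the fat cell programme, *Pparg* and *Cebpa* did not have the order of *Adipoq* over the tumors, and *Srebf1* had it in part. *Pparg*, the nuclear receptor required for adipocyte differentiation, had 314, 259 and 196 counts in controls, 253, 239 and 286 in sh2 and 74, 251 and 315 in sh3. Its log2 fold change was −0.01 (SE 0.38), and sh3 replicate 3, where *Adipoq*, *Plin1* and *Cidec* were all at 0, had the highest CPM of the 9 tumors. *Cebpa*, a factor of adipocytes and of myeloid cells, was highest in sh3 replicate 2 (1707 counts) and lowest in sh3 replicate 1 (355 counts), and the same tumors had the highest and lowest summed macrophage markers (2505 and 569 CPM). *Cd68*, *Csf1r*, *Mrc1* and *C1qa* were each highest in sh3 replicate 2, but *Cd68* and *Mrc1* were lowest in tumors other than sh3 replicate 1. *Cd163* went the other way, with 1.37 CPM in sh3 replicate 2 and 11.6 CPM in sh3 replicate 1. The part of macrophages in *Cebpa* was not tested. *Srebf1* (chromosome 11, 60199084 to 60224186), the activator of the lipogenic enzymes, had 3563, 3304 and 3255 counts in controls, 2673, 1993 and 3213 in sh2 and 1849, 2392 and 2499 in sh3. All sh3 tumors and 2 of the sh2 tumors (85.5 to 121.5 CPM together) were below the controls (133.3 to 151.8 CPM), and sh2 replicate 3 was inside their range at 134.0 CPM, as it was for *Adipoq*. The log2 fold change was −0.36 (SE 0.14) for the mean of both shRNAs.

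**Figure D3:**
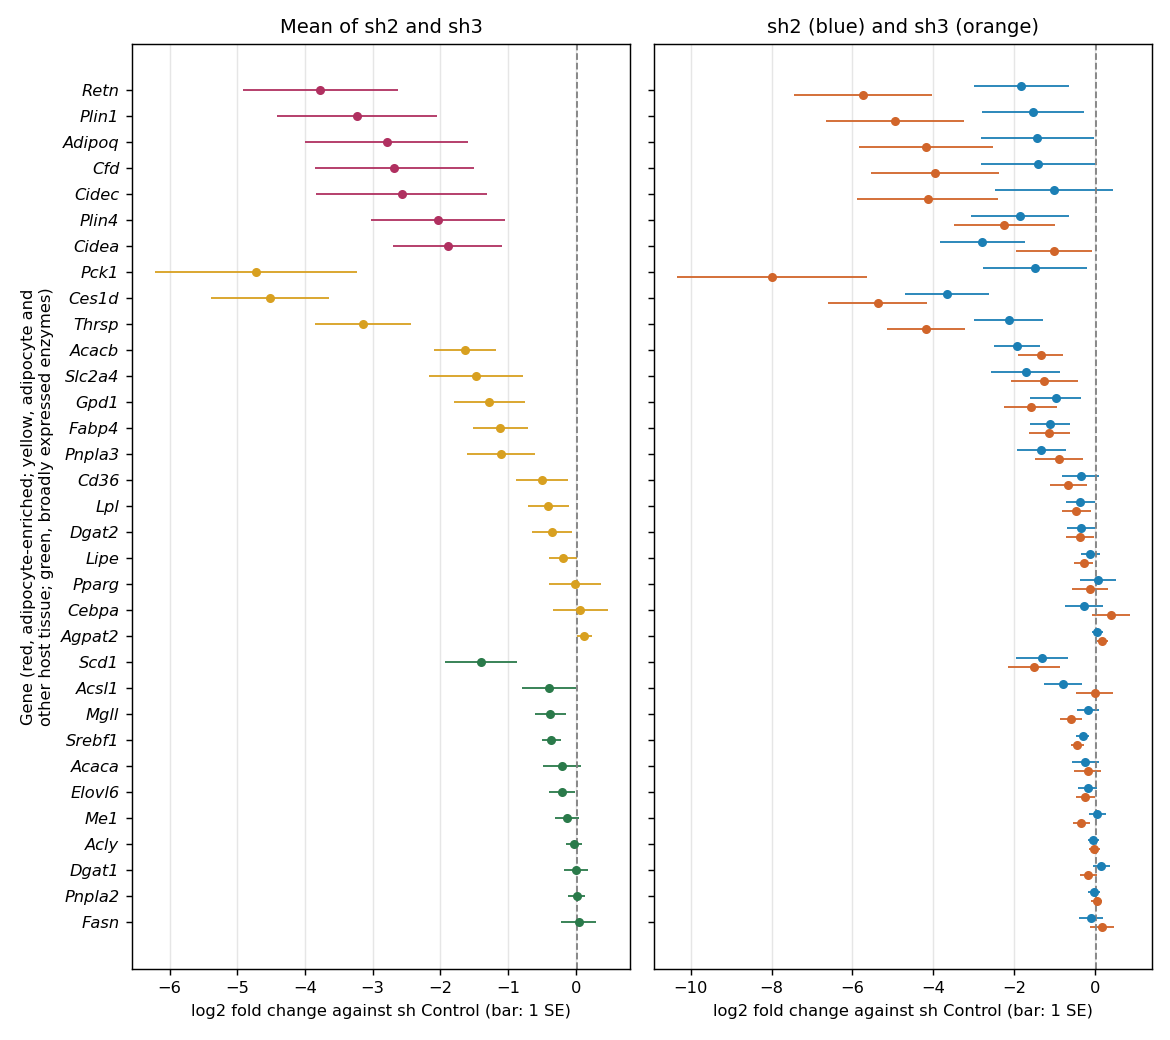
Points are log2 fold changes against the control tumors of the 33 members that passed the filter on low counts, with bars of 1 SE, for the mean of both shRNAs (left) and for each shRNA (right); the dashed line is the median over 14725 genes. Adipocyte-enriched genes lie between −3.78 and −1.89 on the left, and 10 of the 11 broad enzymes lie between −0.5 and 0.5.

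Counts over the members summarise these contrasts, again as a description of the values the choice rested on. With edgeR's quasi-likelihood test, 0 of 14725 genes (0%) passed an FDR of 0.05 in the mean of both shRNAs against controls, in sh2 against controls or in sh3 against controls. An unadjusted P under 0.05 was found for 602 genes (4.09%), 518 genes (3.52%) and 976 genes (6.63%). DESeq2, fitted to 19481 genes without that filter, called 11, 2 and 41 genes. *Thrsp* and *Ces1d* were among the 11 and *Thrsp* among the 41. EdgeR's likelihood ratio test, whose totals over all genes are given in the closing section, called both in the mean of both shRNAs and in sh3. Low counts of these 2 genes had led to the choice of the members, so these calls are no test of the members. Of the 33 members tested, 28 had a log2 fold change under 0 for the mean of both shRNAs, against 45% of all genes, and 9 were at −2 or less, against 0.992%. The filter let in low genes through the group where they were high, so these counts favour the direction of the choice. The median log2 fold change was −2.68 over the 7 adipocyte-enriched genes tested, −1.11 over the 15 genes shared with other host cells and −0.20 over the 11 broad enzymes, beside 0.02 over all genes tested. With sh2 the medians were −1.52, −0.96 and −0.16, and with sh3 they were −4.14, −0.89 and −0.18. With *Cidea* and *Plin4* set aside, a choice made after seeing the data, the median of the first class was −2.79 for the mean of both shRNAs, −1.42 for sh2 and −4.17 for sh3. Without sh2 replicate 3 the median of the 7 genes was −5.11 for the mean of both shRNAs and −6.26 for sh2, or −4.39 and −3.64 with genes at 0 in every tumor of an shRNA set at the bound of 3 counts per tumor. Without sh3 replicate 1 it was −5.38 for sh3, or −4.89 with such genes at their bound. Leaving out some other tumors made the median of this class smaller in size. Without sh2 replicate 1 or 2 it was −0.96 and −0.97 for sh2, and −2.41 each time for the mean of both shRNAs. Without sh3 replicate 3 it was −3.56 for sh3. The medians over all 9 tumors did not change when *Pck1* in sh3 was set at its bound.

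In terms of single tumors, 5 of the 38 members had all 6 knockdown tumors below the 3 controls (*Ces1d*, *Ces1f*, *Aqp7*, *Scd1* and *Acacb*) and none had them all above, against 0.958% and 1.21% of the 14725 genes tested. *Ces1f* and *Aqp7* had not passed the filter on low counts, so that among the 33 members tested the count was 3. For sh2 alone 9 of 38 members lay below the controls (5.83% of genes), and for sh3 alone 18 of 38 (5.44% of genes), or 7 and 14 of the 33 members tested. Single libraries moved the first count. It was 10 without control replicate 1, 9 without control replicate 3 and 17 without sh2 replicate 3, or 7, 6 and 13 of the members tested, where the share over all genes tested was 2.21%, 2.28% and 1.86%. Without sh2 replicate 3, 8 of the 10 adipocyte-enriched genes, 6 of the 17 shared genes and 3 of the 11 broad enzymes had every remaining knockdown tumor below every control.

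Each knockdown tumor can be placed against the control range in the same way. All 10 adipocyte-enriched genes were below the lowest control tumor in sh2 replicates 1 and 2 and in sh3 replicates 2 and 3, 8 of 10 in sh3 replicate 1 (all but *Cidea* and *Plin4*) and 2 of 10 in sh2 replicate 3 (*Aqp7* and *Cidea*). The shares of all genes below the lowest control were 20.4% and 33.8% in sh2 replicates 1 and 2, 30.8% and 28.7% in sh3 replicates 2 and 3, 36.3% in sh3 replicate 1 and 25.4% in sh2 replicate 3. Of the 11 broad enzymes, between 4 and 8 were below the lowest control in any knockdown tumor. Summed over the 10 adipocyte-enriched genes, the level was 27.3, 55.6 and 44.4 CPM in controls, 1.14, 1.01 and 44.5 CPM in sh2 and 8.78, 1.83 and 0.642 CPM in sh3, an 86.7-fold range. Summed over the 11 broad enzymes it was 994, 1112 and 1061 CPM in controls, 867, 919 and 954 CPM in sh2 and 1071, 836 and 957 CPM in sh3. This was a 1.33-fold range, with every knockdown tumor but sh3 replicate 1 below the lowest control.

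**Figure D4:**
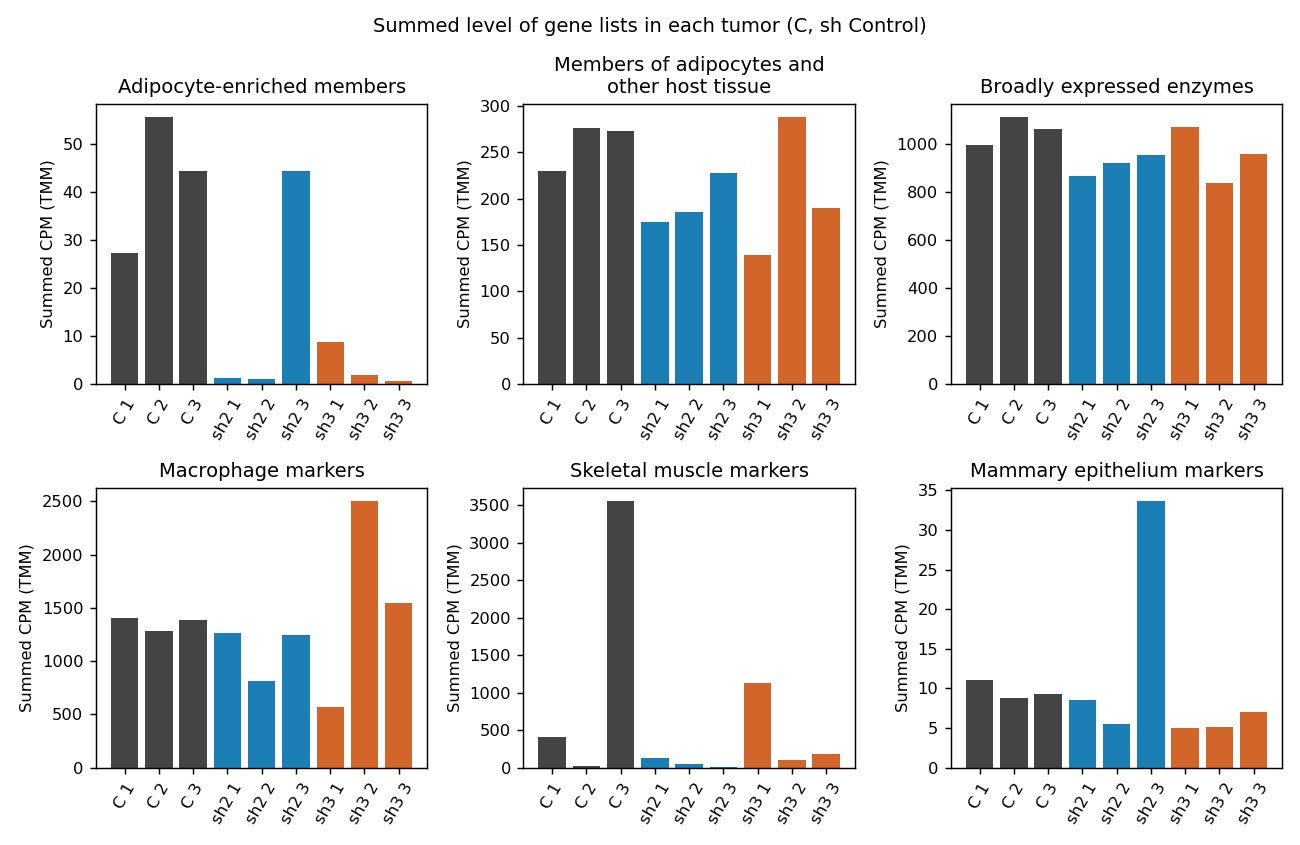
Bars are the summed TMM-normalized CPM of 6 gene lists in each of the 9 tumors (black, control; blue, sh2; orange, sh3). The adipocyte-enriched sum is high in the 3 controls and sh2 replicate 3, the sum of the 11 broad enzymes is between 836 and 1112 CPM in every tumor, and muscle and mammary markers are each high in different tumors.

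The comparison of sh3 with sh2 holds no control tumor and was not used to choose the genes, so members were tested there. The filter on low counts did look at the control tumors: of the 33 members tested, 24 passed when sh2 and sh3 alone were filtered and fitted, again with 0 genes past an FDR of 0.05. *Adipoq*, *Cidec*, *Cidea* and *Pck1* had few counts in most sh2 and sh3 tumors and passed only with the control tumors counted. *Pck1* had also been named in the choice. *Plin1*, *Retn* and *Ces1d* likewise had few counts in most sh2 and sh3 tumors. Values of members that passed only with the control tumors counted are therefore a description only. No gene of 14725 passed an FDR of 0.05 in edgeR's quasi-likelihood test (0%), 1057 genes (7.18%) had an unadjusted P under 0.05, and DESeq2 called 53 genes, none of them a member. For the 33 members tested, the FDR ran from 0.673 to 0.998, a range that includes the members given as a description only. Only *Pck1* among the members had an unadjusted P under 0.05, which is no test of it for the reasons above. It had 0, 2 and 33 counts in sh2 and 0 in all 3 sh3 tumors. No member had the sh2 and sh3 tumors apart from each other, where 4.62% of all genes had sh3 below sh2 in every tumor and 5.51% above. The size of the difference was uncertain for the adipocyte-enriched genes: −2.75 (SE 1.63) on the log2 scale for *Adipoq*, −2.54 (SE 1.52) for *Cfd*, −3.13 (SE 1.70) for *Cidec* and 1.78 (SE 1.06) for *Cidea*. For *Cfd* the FDR in edgeR's quasi-likelihood test was 0.701. The directions of *Adipoq*, *Cfd* and *Cidec* rested on 1 tumor. Without sh2 replicate 3 the difference was 2.66 for *Adipoq*, 2.29 for *Cfd* and 1.29 for *Cidec*, that is, higher in sh3, while *Cidea* was higher in sh3 whichever tumor was left out (0.34 to 2.51). For the 11 broad enzymes it lay between −0.43 and 0.78.

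Whether members varied together apart from the shRNA was asked with group means removed, by the correlation of log2 CPM with *Adipoq* over the 9 tumors. At 0.8 or more were 5 of the 32 other members tested, *Cfd* (r = 0.99, rho = 0.97), *Plin1* (r = 0.96, rho = 0.97), *Cidec* (r = 0.94, rho = 0.95), *Retn* (r = 0.93, rho = 0.87) and *Fabp4* (r = 0.91, rho = 0.78), against 0.808% of 14724 genes. *Adipoq* itself and *Cidec* had passed the filter only with the control tumors counted, and *Plin1* and *Retn* had few counts in most knockdown tumors. The correlations and P values here, and those of *Ces1d* and *Pck1* below, thus rest in part on counts near the floor. They are a description, no test of the members. With tumors permuted within groups, which allows no exact P below 0.00463, *Cfd* gave P = 0.0139 for r and 0.00926 for rho, and *Plin1* gave P = 0.0185 for both. *Cidec* gave P = 0.0278 for both, *Retn* 0.0556 for both, and *Fabp4* 0.0231 for r and 0.0185 for rho in the same two-sided exact permutation. After Benjamini-Hochberg adjustment over the 32 members the lowest values were 0.222 for r and 0.198 for rho, so no member passed the correction. The shared spread came mostly from 1 group: the 2 tumors farthest from the median were sh2 replicates 2 and 3. Without them r was 0.98 for *Cfd*, 0.85 for *Plin1*, 0.84 for *Cidec*, 0.86 for *Fabp4* and 0.69 for *Retn*, and 5 members, *Gpd1* in place of *Retn*, were at 0.8 or more, against 1.85% of genes. Leaving out sh2 replicate 3 alone left 3 members at 0.8 or more, against 3.14% of genes, and leaving out sh3 replicate 1 gave 8, against 2.14%.

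**Figure D5:**
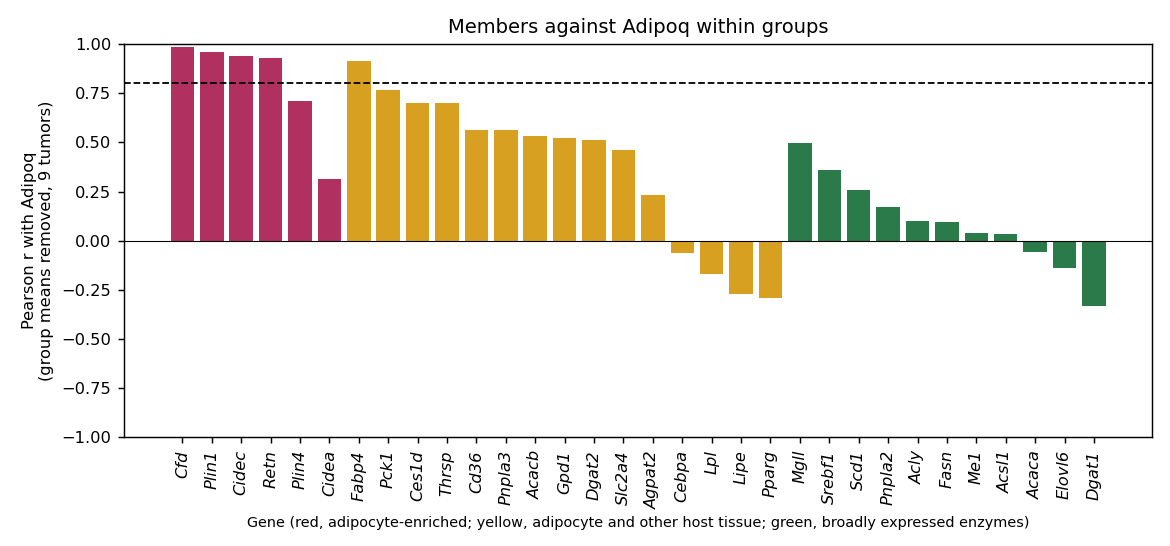
Bars are Pearson correlations with *Adipoq* of the 32 other members tested, over 9 tumors with group means removed, by class; the dashed line marks 0.8. Of the 6 adipocyte-enriched genes 4 pass it, of the 15 shared genes 1 (*Fabp4*), and of the 11 broad enzymes none.

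Median correlations with *Adipoq* were 0.93 for the 6 adipocyte-enriched genes, 0.52 for the 15 shared genes and 0.10 for the 11 broad enzymes, beside 0.00 for all genes. *Thrsp*, *Ces1d* and *Pck1* lay between, at r = 0.70, 0.70 and 0.77 (rho = 0.68, 0.51 and 0.70, exact permutation P = 0.0880, 0.139 and 0.194 for r). Their r without the 2 farthest tumors was 0.52, 0.50 and 0.45. *Pparg* (−0.29), *Lipe* (−0.27) and *Lpl* (−0.17) were on the other side of 0, though each is a well-known product of adipocytes. Among the 10 genes outside the list with the highest correlation were *Hnrnpc*, *Sema3b*, *Sowahb*, *Mme*, *Cyp2e1*, *Ephx2*, *Rdh10*, *Srcin1* and *Dgkk*, at r between 0.93 and 0.96. *Cyp2e1*, a cytochrome P450 of liver and fat, came closest to *Adipoq* in its counts, with 30, 52 and 95 in controls, 1, 1 and 53 in sh2 and 4, 2 and 2 in sh3. *Hnrnpc*, by contrast, differed 1.38-fold between its lowest and highest tumor, so a high correlation did not mean a large change.

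Other genes of lipid metabolism came from lists drawn up beside the members. Of 17 further adipocyte genes 16 were in the table and 14 were tested, of which 9 had a log2 fold change under 0 for the mean of both shRNAs (median −0.15, against 0.02 over all genes). Their median was −0.21 with sh2 and −0.66 with sh3, beside −0.78 and −0.65 over the 33 members tested. The most abundant were *Plin2*, the droplet protein of all cells (0.27, mean 368 TPM), *Car3* (−1.82) and *Angptl4* (−0.07). *Car3*, a carbonic anhydrase of fat and muscle, had 4004 counts in control replicate 3 and 1519 in sh3 replicate 1, the tumors with most muscle marker RNA. All 14 cholesterol synthesis genes were tested, 7 of them under 0, with a median of 0.01 (0.20 with sh2 and −0.19 with sh3). Of 12 fatty acid oxidation genes 10 were under 0, with a median of −0.23, and *Acadvl* and *Hadha* were among those with all 6 knockdown tumors below the controls, with log2 fold changes of −0.25 and −0.24. In sh3 against sh2 none of these genes passed an FDR of 0.05 with edgeR.

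Markers of other host tissue near the tumor moved with the adipocyte genes only in part. Liver genes were near 0 apart from *Cyp2e1*: *Apoa1* and *Fgb* had 3 counts or fewer in every tumor. Of the thermogenic fat genes, *Ucp1* had 115 counts in control replicate 2 and 4 or fewer elsewhere, and the summed level of all 6 was 8.90 to 14.3 CPM in controls, 3.67 to 9.73 CPM in sh2 and 3.70 to 9.03 CPM in sh3. Skeletal muscle genes were high in control replicate 3 and sh3 replicate 1 but lowest in sh2 replicate 3, where *Adipoq* was at the control level. Endothelial markers summed to between 141 and 245 CPM and macrophage markers to between 569 and 2505 CPM, with no marker of either list at 0 in any tumor. The 8 sebaceous gland genes summed to between 123 and 183 CPM, with up to 3 of them at 0 in a tumor. Most of that sum was *Soat1*, at 111 to 179 CPM. *Krt79* had 226 counts in control replicate 1 and 23 or fewer in the other tumors, so the even sum does not describe every gene of this list. The 5 mammary markers in the table summed to 33.7 CPM in sh2 replicate 3 and to between 4.99 and 11.1 CPM elsewhere, where up to 2 were at 0. *Csn2*, *Csn3* and *Csn1s1* were each highest in sh2 replicate 3 (218, 137 and 192 counts). How much of the difference between tumors came from the amount of fat, skin or gland in each piece was not tested.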

How the data were processed

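RNA of 9 subcutaneous KLN205 tumors was prepared from 30 to 50 mg of tissue and sequenced as stranded mRNA libraries. The authors checked reads with FastQC, aligned them with STAR 2.5.3a to mm10, counted them per gene with featureCounts and used edgeR, and they deposited the raw counts used here. The deposited CPM signal equals each count over the product of total count and TMM factor. Deposited TPM served to compare levels between genes. The 10 columns of the authors' own comparisons, holding fold changes and P values, were not used. The strand setting is not given in the sources used here.

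A joint fit of the raw counts of 9 tumors was made in edgeR 4.0.16 (R 4.3.3, limma 3.58.1) after filterByExpr by group, which kept 14725 genes and 33 of the 38 members (*Lep*, *Aqp7*, *Ces1f*, *Elovl3* and *Adrb3* were not kept), with TMM factors, robust quasi-likelihood fits and Benjamini-Hochberg FDR over all genes tested. CPM in the text is TMM-normalized. Log2 CPM for correlations had a prior count of 2. Python 3.11.15 (numpy 2.4.6, pandas 2.3.3, matplotlib 3.10.9) drew the plots. Fits were tested on simulated counts: 37.3%, 85.1% and 95.5% of genes given a log2 change of 1, 2 and 3 were called in the mean of both shRNAs against controls (14599 genes in that step), and at a change of 1 23.9% in sh2 and 25.4% in sh3 against controls. The changed genes had a mean above 1 CPM and the same change in both shRNAs. These shares thus do not cover members of lower level or with unlike changes in sh2 and sh3.

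Groups and replicate numbers came from the labels. The labels name biological replicates but not the animals. Members, classes and gene lists were chosen with earlier results of these data known. Values per tumor were given for *Thrsp*, *Ces1d* and *Pck1*, for adipocyte-enriched genes with a mean of 1 TPM or more and for the 5 broad enzymes with the highest TPM, and in other lists up to 3 genes of highest TPM were named; other genes named were chosen after their values were seen. Alternatives were DESeq2 1.42.0 and its size factors, other filters, the likelihood ratio test, only the groups compared, a replicate block and each tumor left out. Added after seeing the data were values without *Cidea* and *Plin4*, with genes at 0 set at their bound and over tested members alone. Promoter sequences are from RefSeq. A few genes that these rules would name are not reported here. Spatial and human data of the study were not analysed here.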

Additional observations from a re-analysis of the deposited data

How the results depend on the processing

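Counts of genes past an FDR of 0.05 were 0 in all 4 comparisons and stayed 0 with DESeq2's size factors in edgeR, no filter, a minimum of 10 counts per tumor and each tumor left out (lowest and highest 0), and in the 3 comparisons of single groups with a fit of those groups alone. They rose to 11 (mean of both shRNAs), 2 (sh2), 41 (sh3) and 53 (sh3 against sh2) genes with DESeq2's Wald test, and to 8, 0, 8 and 14 with edgeR's likelihood ratio test; the cause was not tested. Replicate numbers did not pair the tumors (same-number correlations from −0.235 to 0.0863 over 9 pairs), and with the number as a block 0 genes passed in each comparison. The 5 members whose groups did not overlap became 5 with DESeq2's size factors and 6 with total counts only, and between 5 and 17 when 1 tumor was left out. The 5 members following *Adipoq* became 5 with a prior count of 0.5 or total counts only, 4 with Spearman correlation, 6 with *Plin1* as anchor, and between 3 and 8 when 1 tumor was left out. Fold changes of named members in sh3 against sh2 reversed 3 times, all without sh2 replicate 3: *Adipoq* (range over left-out tumors −3.96 to 2.66), *Cidec* (−8.57 to 1.29, where the first is a fitted value against 2 sh3 tumors at 0 counts, and sh3 was at least 14.7-fold lower there with 3 counts per tumor as the floor) and *Cfd* (−3.74 to 2.29). Of the other values recomputed, 526 moved by less than the spread or kept their side of the threshold and 17 moved by more. Both low counts (3 counts equal 0.125 to 0.145 CPM) and the spread between tumors limit precision, the second also for *Cfd*, which had 388 counts or more in every control tumor.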
